A study of Homo sapiens with 48 samples.

Results

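Genes that class the risk of uveal melanoma were followed in 3 lines of this tumour given a blocker of chromatin remodelling or of protein kinase C. The 10 genes were given by name, HTR2B, ECM1, RAB31, LTA4H, MTUS1, ROBO1, SATB1, LMCD1, EIF1B and PRAME, and each matched 1 of the 58870 genes in the count files. RNA was sequenced from 48 samples in 16 groups of 3 replicates, which the labels call biological without naming separate cultures, so p-values measure the spread between these samples. Lines 92-1, MEL202 and MP41, each labelled wild type, received DMSO or FHT-1015, a compound that blocks both ATPases, SMARCA4 and SMARCA2, that drive BAF chromatin remodelling, for 4 or 24 h. Line 92-1 also received IDE196, an inhibitor of protein kinase C, or a separate set of DMSO samples, for 4 or 24 h. No doses are given in the labels, and each line is a single tumour-derived culture grown without the cells that surround a tumour.

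Uveal melanoma arises from melanocytes of the eye, and its expression profile separates tumours that rarely spread (class 1) from those that often do (class 2). A clinical test reads this difference from 12 class genes scaled to 3 control genes. HTR2B, a serotonin receptor coupled to Gq proteins, ECM1, a secreted glycoprotein of the extracellular matrix, RAB31, a small GTPase of endosomal transport, and CDH1, the adhesion protein E-cadherin, are higher in class 2 tumours. The genes lower in class 2 tumours are LTA4H, the enzyme that makes leukotriene B4, MTUS1, a microtubule-associated protein, ROBO1, the receptor for SLIT guidance ligands, SATB1, a DNA-binding organiser of chromatin, LMCD1, a LIM-domain transcriptional cofactor, EIF1B, a relative of the translation initiation factor EIF1, FXR1, an RNA-binding protein, and ID2, an inhibitor of bHLH transcription factors. PRAME, a cancer-testis antigen that represses retinoic acid receptor signalling, is a separate marker of risk. The control genes are MRPS21, RBM23 and SAP130.

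Libraries held 11394088 to 32317711 reads in genes. Levels are read counts scaled to a common library size (CPM) after TMM normalisation of all 48 libraries together, and fold changes come from edgeR's quasi-likelihood test within each line and drug. A gene was called changed at an adjusted p under 0.05 over all genes tested. The 5 libraries that correlated least with the others of their group were MEL202 with FHT-1015 at 4 h replicate 2, MEL202 DMSO at 4 h replicates 1 and 3, and MP41 DMSO at 24 h replicates 2 and 3 (mean r 0.966 to 0.973). Between 8 and 10 of 10 melanocyte lineage markers were above 1 CPM in every group, with S100B under 1 CPM in 92-1, and their summed level lay between 2989 and 21200 CPM. Summed levels reached 18.0 CPM for 5 epithelial, 36.5 CPM for 5 fibroblast, 4.71 CPM for 5 immune, 3.17 CPM for 4 endothelial and 38.2 CPM for 3 retinal pigment epithelium markers. The libraries do not mark strand, so reads of a gene and of an overlapping gene on the other strand cannot be told apart by strand. In shared exon bases such overlap was largest for HTR2B, which lies inside the span of PSMD1 and shares 24.9% of its exon bases with it. LMCD1 also lies with all its exons inside the span of a gene on the other strand, LMCD1-AS1, with 0 exon bases shared, and LTA4H with 44.4% of its exon bases inside an antisense gene, 7.92% of them shared. Reads counted as ambiguous between genes stand in a row of their own, apart from the gene counts (9.35 to 11.8% per library).

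Among vehicle-treated cells, PRAME separated the lines most. It lies on chromosome 22 (22547701 to 22559361, minus strand, in GRCh38 by GENCODE 29, as for the genes below). In MEL202 the 6 DMSO libraries held 293 to 364 CPM (median 312), and in MP41 152 to 254 CPM (median 184). The 24 libraries of 92-1, treated or not, held 12 PRAME reads in all, 18 libraries had 0, and a single library exceeded 3 reads. Every MEL202 and MP41 library was therefore above every 92-1 library. Taking 3 reads per library as the floor for 92-1, PRAME was at least 1313-fold higher in MEL202 and at least 777-fold higher in MP41. MP41 minus MEL202 was -0.78 ± 0.12 (SE) on the log2 scale (edgeR adjusted p = 2.81e-05), and the groups did not overlap.

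The PRAME promoter and that of ECM1 are shown because these genes were near 0 in 92-1 and high in the other lines. The sequences are from RefSeq (GRCh38.p14) and lie upstream of both the RefSeq start and the GENCODE 29 gene. PRAME is chr22:22559362-22559515 on the minus strand, with its 5 CpG dinucleotides, the sites of DNA methylation, in capitals. ECM1 is chr1:150507859-150508061 on the plus strand, with the AP-1 motif TGAGTCA in capitals.
PRAME: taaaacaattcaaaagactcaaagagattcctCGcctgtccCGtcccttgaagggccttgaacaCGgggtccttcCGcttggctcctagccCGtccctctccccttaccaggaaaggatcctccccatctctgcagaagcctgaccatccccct
ECM1: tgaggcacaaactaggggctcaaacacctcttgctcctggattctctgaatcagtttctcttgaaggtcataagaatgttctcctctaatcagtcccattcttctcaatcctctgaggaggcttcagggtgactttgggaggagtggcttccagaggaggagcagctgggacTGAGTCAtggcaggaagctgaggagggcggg
The AP-1 motif, searched on both strands, begins 78 bases before the RefSeq start of ECM1 and occurs in 4.2% of 35116 upstream windows of 250 bases. Over the 250-base windows that hold these stretches PRAME had 9 CpG and ECM1 had 1, against a median of 11 in all windows. Promoters of 8 of the 10 genes were matched, and none of the other 7 held TGAGTCA. Neither methylation nor factor binding was measured, and a motif here describes letters only.

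ECM1 (chromosome 1, 150508062 to 150513789, plus strand) also split the lines. The DMSO libraries held 0.97 to 2.95 CPM (median 1.57) in the 92-1 set beside FHT-1015, 1.95 to 6.57 CPM (median 4.27) in the 92-1 set beside IDE196, 96.8 to 149 CPM (median 113) in MEL202 and 107 to 193 CPM (median 118) in MP41. No library of 92-1 reached the lowest library of the other lines. The log2 difference from 92-1 was 6.13 ± 0.26 in MEL202 (adjusted p = 2.44e-15) and 6.23 ± 0.26 in MP41 (adjusted p = 8.67e-16). MP41 and MEL202 did not differ beyond their spread (95% interval -0.31 to 0.51).

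HTR2B was highest in MEL202. It spans 231108230 to 231125118 on the minus strand of chromosome 2. Its DMSO libraries held 26.3 to 49.8 CPM (median 44.0) in MEL202, 15.5 to 22.1 CPM (median 20.6) in the FHT-1015 set of 92-1, 9.33 to 12.8 CPM (median 11.9) in the IDE196 set of 92-1 and 2.55 to 25.6 CPM (median 12.1) in MP41. MEL202 was above 92-1 by 1.08 ± 0.23 log2 (adjusted p = 0.000437) and above MP41 by a larger margin, since MP41 minus MEL202 was -1.62 ± 0.24 (adjusted p = 3.15e-06). The lowest value, 2.55 CPM, belonged to MP41 DMSO at 24 h replicate 2. The lower level of MP41 than of 92-1 (-0.54 ± 0.24, adjusted p = 0.0475) was lost in 18 of the 24 fits that each left out 1 DMSO library, that one among them (-0.32, adjusted p = 0.0745), and had the opposite sign, not called, when the IDE196 set stood for 92-1 (0.18).

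RAB31 (chromosome 18, 9708165 to 9862551, plus strand) varied within lines as well as between them. MEL202 held 109.7 to 239.5 CPM (median 176), MP41 80.9 to 131 CPM (median 127), the FHT-1015 set of 92-1 74.6 to 116 CPM (median 102) and the IDE196 set of 92-1 127 to 187 CPM (median 169). The ranges of the lines overlapped, those of the 92-1 sets did not, and the order of the lines depended on which set stood for 92-1. MEL202 was above the FHT-1015 set by 0.87 ± 0.16 (adjusted p = 6.00e-05) but differed by 0.11 from the IDE196 set (adjusted p = 0.581). MP41 minus 92-1 was 0.31 ± 0.16 (adjusted p = 0.0794) with the first set and -0.44 (adjusted p = 0.0167) with the second. The first of these was called with library size alone, by limma-voom (adjusted p = 0.0234 and 4.31e-05) and without MEL202 DMSO at 24 h replicate 1 or MP41 DMSO at 24 h replicate 2.

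Of the 6 genes lower in class 2 tumours, MTUS1 and EIF1B were highest in 92-1, ROBO1 in MEL202 and LMCD1 in MP41. MTUS1 (chromosome 8, 17643795 to 17800917, minus strand) had 112 to 131 CPM (median 119) in the FHT-1015 set of 92-1, 34.1 to 63.3 CPM (median 51.6) in MEL202 and 28.3 to 52.8 CPM (median 46.9) in MP41. The difference from 92-1 was -1.28 ± 0.13 in MEL202 and -1.40 ± 0.13 in MP41 (adjusted p = 2.01e-08 and 2.55e-09), with no overlap. EIF1B (chromosome 3, 40309684 to 40312424, plus strand) had 50.7 to 63.2 CPM (median 52.6), 17.8 to 38.0 CPM (median 22.0) and 17.6 to 32.6 CPM (median 27.4) in the same order, and differed from 92-1 by -1.15 ± 0.16 and -1.06 ± 0.16 in MEL202 and MP41 (adjusted p = 2.77e-06 and 4.94e-06).

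ROBO1 (chromosome 3, 78597240 to 79767815, minus strand) reached 78.7 to 191 CPM (median 154) in MEL202, against 32.0 to 52.2 CPM (median 43.6) in 92-1 and 54.8 to 69.7 CPM (median 58.9) in MP41. MEL202 was 1.83 ± 0.17 above 92-1 (adjusted p = 2.51e-09). The gap between MP41 and 92-1 (0.57 ± 0.16, adjusted p = 0.00369) fell to 0.028 (adjusted p = 0.896) against the IDE196 set. LMCD1 (chromosome 3, 8501707 to 8574673, plus strand) had 37.0 to 55.6 CPM (median 45.2) in MP41, above the libraries of 92-1, which held 19.3 to 23.1 CPM (median 20.9), and of MEL202, which held 20.0 to 29.6 CPM (median 23.1). MP41 exceeded 92-1 by 1.17 ± 0.11 (adjusted p = 3.80e-09), whereas MEL202 and 92-1 did not differ beyond their spread (95% interval -0.028 to 0.44).

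SATB1 (chromosome 3, 18345387 to 18445588, minus strand) had 19.8 to 31.9 CPM (median 25.6) in the FHT-1015 set of 92-1, 32.1 to 54.6 CPM (median 44.9) in its IDE196 set, 29.8 to 58.3 CPM (median 45.0) in MEL202 and 29.9 to 38.1 CPM (median 34.5) in MP41. MEL202 minus 92-1 was 0.78 ± 0.14 with the first set (adjusted p = 7.99e-05) and 0.0068 with the second (adjusted p = 0.978). MP41 minus 92-1 was 0.41 ± 0.14 with the first set (adjusted p = 0.015) and -0.36 with the second (adjusted p = 0.0329). The first of these MP41 values was not called without 92-1 DMSO at 24 h replicate 1 (0.336, adjusted p = 0.0531) or with scaling to the control genes (0.373, adjusted p = 0.0654). MP41 minus MEL202 was -0.37 ± 0.14 (adjusted p = 0.0322), a call lost on leaving out each of 6 single libraries (MEL202 at 4 h replicate 2 and at 24 h replicates 2 and 3, MP41 at 4 h replicates 1 and 3 and at 24 h replicate 3, adjusted p 0.0542 to 0.0965) and with library size alone, scaling to the control genes or no low-count filter (adjusted p = 0.111, 0.427 and 0.0649). LTA4H (chromosome 12, 96000828 to 96043520, minus strand) lay between 36.5 and 65.6 CPM in the 24 DMSO libraries of both sets and all lines. No difference between lines was called for it, with 95% intervals of -0.33 to 0.17 for MEL202 and -0.48 to 0.019 for MP41 against 92-1, except that MP41 was called lower by limma-voom (-0.164, adjusted p = 0.0181) and without MP41 DMSO at 24 h replicate 3 (-0.301).

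In counts, 8 of the 10 genes differed between MEL202 and 92-1, where 55.4% of 17286 genes tested did. MP41 and 92-1 differed in 8 (background 67.3%), and MP41 and MEL202 in 6 (background 58.3%). The DMSO sets of 92-1 themselves differed in 6 of the 10 genes, against 39.1% of all genes. In the IDE196 set ECM1, RAB31, ROBO1 and SATB1 were higher, by 1.33, 0.76, 0.55 and 0.77 log2, and HTR2B and EIF1B lower, by -0.72 and -0.45. Scaling to the control genes ended the last 2 calls (adjusted p = 0.0915 and 0.144). The HTR2B call was also lost without IDE196-set DMSO at 4 h replicate 4 (adjusted p = 0.0531), and the EIF1B call without any of 7 single libraries (DMSO at 4 h replicates 1, 4 and 6 and at 24 h replicates 1, 3, 4 and 5, adjusted p 0.0508 to 0.0835). The 5 epithelial markers summed to 12.03 to 13.01 CPM in the DMSO libraries of that set and to 0.939 to 1.11 CPM in the FHT-1015 set, and their part in the differences was not tested. Differences between lines of this size or smaller therefore cannot be told apart from differences between sets. Per kilobase of exon, PRAME had the highest mean DMSO level of the 10 genes in MEL202 (84.98 CPM per kb), ahead of ECM1 (35.4), and in MP41 (50.3), while EIF1B led in the FHT-1015 set of 92-1 (28.6) and RAB31 in its IDE196 set (28.9, with EIF1B at 20.5).

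**Figure D1:**
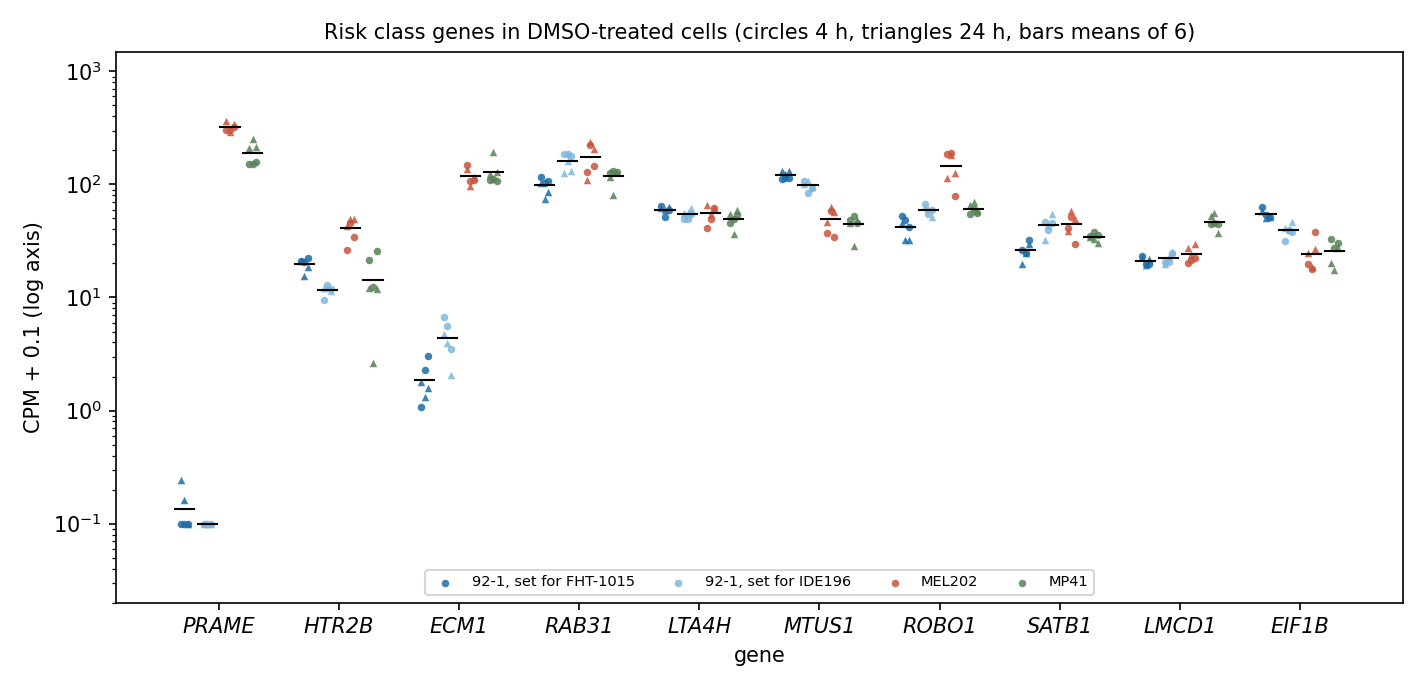
Levels of the 10 risk class genes in DMSO-treated cells, as CPM plus 0.1 on a log axis, with 1 point per library (circles 4 h, triangles 24 h) and bars at the mean of 6 libraries per line or set. PRAME and ECM1 are near 0 in both sets of 92-1 and above 90 CPM in MEL202 and MP41, while the LTA4H points of all lines overlap.

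FHT-1015 changed 4 of the genes at 4 h and 8 at 24 h in 92-1, 0 and 8 in MP41, and 0 and 3 in MEL202. In 92-1 at 4 h, 1 gene rose and 3 fell among the 9 tested (PRAME was too low), where 29.5% of all genes were called (12.9% higher, 16.7% lower). With all 48 libraries in one fit 2 were called, and with scaling to the control genes 6, of which RAB31 alone was lower. At 24 h, 5 rose and 3 fell, against 60.6% of all genes (29.2% higher, 31.4% lower). MEL202 had 0 of 10 called at 4 h (background 0.679%, 0.157% higher and 0.522% lower), with 3 of them, PRAME, HTR2B and MTUS1, at an unadjusted p under 0.05 and PRAME called by DESeq2. At 24 h MEL202 had 2 higher and 1 lower (background 18.8%, 8.69% higher and 10.1% lower), while DESeq2 called 5, the 6 libraries alone or all 48 in one fit 6, and limma-voom 7. The background shares are edgeR's, and none was counted for the other settings. MP41 had 0 of 10 at 4 h (background 0.225%, 0.0708% higher and 0.154% lower), with LMCD1 at an unadjusted p under 0.05 and called by limma-voom, and 6 higher and 2 lower at 24 h (background 36.1%, 17.4% higher and 18.7% lower). When the 6 libraries compared were fitted alone, 4 genes were called in MP41 at 24 h, and LTA4H, RAB31, EIF1B and PRAME had adjusted p = 0.11, 0.0691, 0.0723 and 0.108. IDE196 raised 2 and lowered 2 of 9 at 4 h (background 16.2%, 6.89% higher and 9.3% lower) and raised 5 and lowered 3 at 24 h (background 58.1%, 28.7% higher and 29.4% lower). The spread between replicates, as the biological coefficient of variation, was 0.117 in 92-1 with FHT-1015, 0.294 in MEL202, 0.217 in MP41 and 0.112 with IDE196, so smaller changes could be called in 92-1. For many genes the 3 treated libraries did not overlap the 3 DMSO libraries. With FHT-1015 at 24 h this held for 65% of all genes tested in 92-1, 52% in MEL202 and 42.3% in MP41. At 4 h it held for 43.7%, 9.45% and 20.9% in the same order. With IDE196 it held for 30.1% at 4 h and 65% at 24 h. Lack of overlap, given for single genes below, was thus common at 24 h. In bulk RNA, fewer cells expressing a gene and less RNA per cell cannot be told apart.

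**Figure D2:**
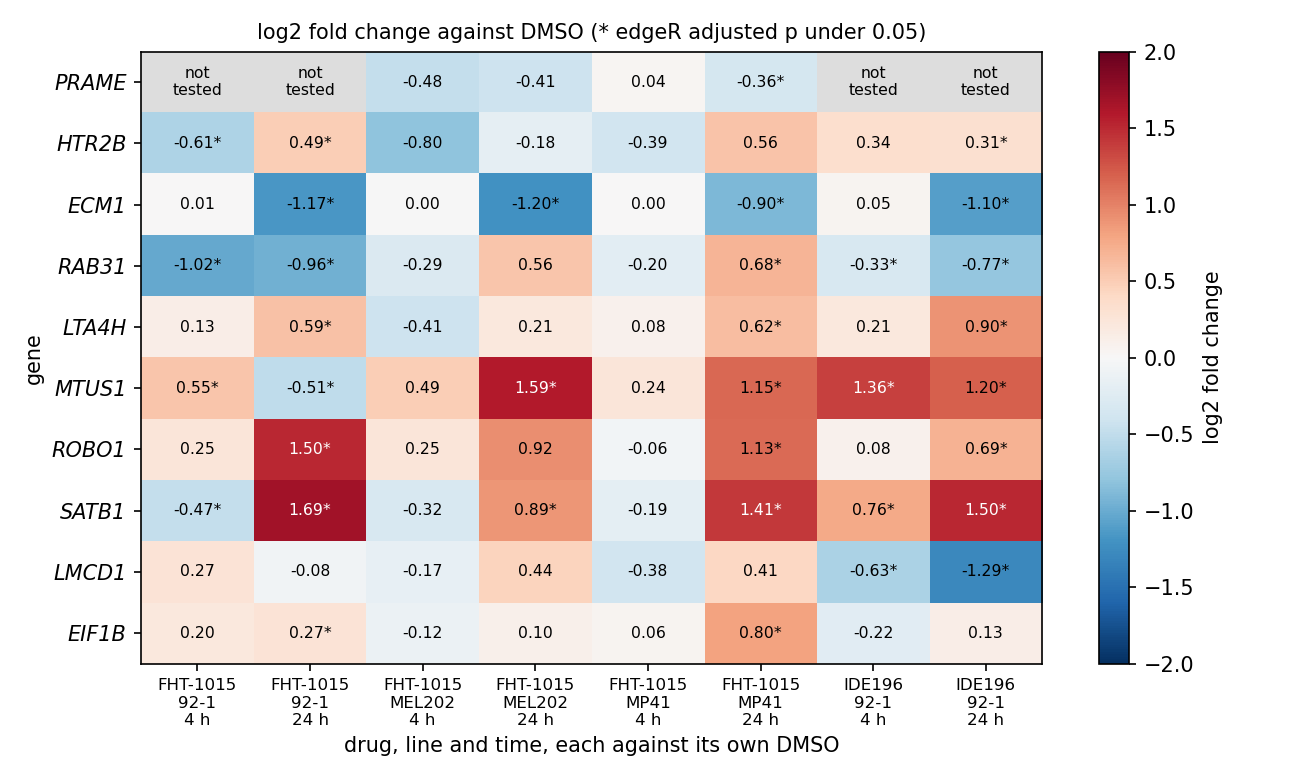
Heat map of log2 fold changes of the 10 genes (rows) against DMSO in each line, drug and time (columns), with an asterisk where the edgeR adjusted p is under 0.05. At 24 h the SATB1 row is positive and called in all 4 columns and the ECM1 row negative and called in all 4, while the MTUS1 row is negative in 92-1 with FHT-1015 and positive elsewhere.

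The genes were also counted by their direction in tumours. Of the 6 lower in class 2, FHT-1015 at 24 h raised 4 and lowered 1 (MTUS1) in 92-1, raised 2 and lowered 0 in MEL202, where 4 were not called, and raised 5 and lowered 0 in MP41. IDE196 raised 4 and lowered 1 (LMCD1). Of all genes, 29.2% were called higher and 31.4% lower in 92-1, 8.69% and 10.1% in MEL202, 17.4% and 18.7% in MP41 and 28.7% and 29.4% with IDE196. Of the 3 genes higher in class 2, ECM1 fell in all 4 experiments, while RAB31 fell in 92-1 with either drug and rose in MP41, and HTR2B rose in 92-1 with either drug. The median log2 change over the genes tested was 0.27 in 92-1, 0.32 in MEL202 and 0.65 in MP41 with FHT-1015 at 24 h, and 0.31 with IDE196, beside -0.00082, -0.0055, 0.065 and 0.029 over all genes tested.

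SATB1 rose at 24 h in all 3 lines with FHT-1015 and in 92-1 with IDE196. In 92-1 it had 19.8, 24.9 and 29.8 CPM in DMSO and 89.8, 76.4 and 76.7 CPM with FHT-1015. MEL202 went from 38.7, 58.3 and 49.3 to 90.3, 84.9 and 91.6 CPM, and MP41 from 34.0, 32.8 and 29.9 to 91.7, 75.1 and 79.1 CPM. Every treated library lay above every DMSO library of its line. Groups did not overlap for 65% of all genes tested in 92-1, 52% in MEL202 and 42.3% in MP41. The log2 changes were 1.69 ± 0.15 (adjusted p = 1.35e-07), 0.89 ± 0.22 (adjusted p = 0.0113) and 1.41 ± 0.15 (adjusted p = 1.35e-05). IDE196 took it from 32.1, 44.0 and 54.6 to 115, 123 and 145 CPM (2.83-fold, adjusted p = 5.52e-07). The MEL202 call was lost without DMSO at 24 h replicate 1 (0.75, adjusted p = 0.0609).

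The early response of SATB1 differed from the late one. At 4 h in 92-1 it fell with FHT-1015, from 26.4, 24.9 and 31.9 to 23.4, 18.9 and 18.3 CPM (-0.47 ± 0.15, adjusted p = 0.0281), and rose with IDE196, from 46.3, 39.8 and 45.9 to 92.3, 62.4 and 69.0 CPM (0.76 ± 0.16, adjusted p = 0.00347). The drugs differed at 4 h by -1.24 ± 0.24 (adjusted p = 0.000363) and not detectably at 24 h (95% interval -0.30 to 0.68). The early fall was not called without DMSO at 4 h replicate 3 (-0.37, adjusted p = 0.129), FHT-1015 at 4 h replicate 2 (-0.43, adjusted p = 0.101) or replicate 3 (-0.42, adjusted p = 0.0847). SATB1 lies within the span of TBC1D5 on the same strand, with 1.57% of its exon bases shared. TBC1D5 itself changed by 1.19 ± 0.12, 0.92 ± 0.32 (not called) and 0.43 ± 0.14 log2 with FHT-1015 and by 0.86 ± 0.10 with IDE196 at 24 h, and its part in the SATB1 counts was not tested.

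ROBO1 was higher at 24 h in every line. With FHT-1015 it went from 45.5, 32.0 and 32.1 to 120.0, 96.8 and 98.7 CPM in 92-1, from 113, 183 and 126 to 301, 240.4 and 247 CPM in MEL202 and from 66.3, 69.7 and 57.9 to 172, 130.2 and 104 CPM in MP41. The groups did not overlap in any line. The change was 1.504 ± 0.15 in 92-1 (adjusted p = 3.27e-07) and 1.13 ± 0.18 in MP41 (adjusted p = 0.000301), and 0.92 ± 0.33 in MEL202, where it did not pass (adjusted p = 0.0647). The MEL202 rise was called without the low-count filter, by DESeq2, by limma-voom, in the 6 libraries alone and with all 48 in one fit (adjusted p 0.000102 to 0.0293). It was also called without DMSO at 4 h replicate 3 or FHT-1015 at 4 h replicate 2 or 3. IDE196 raised it less, from 63.5, 60.7 and 51.2 to 88.7, 98.4 and 106 CPM (0.69 ± 0.10, adjusted p = 1.45e-05), and the difference between the drugs was 0.81 ± 0.18 (adjusted p = 0.000849). No change was called at 4 h by edgeR, while in 92-1 with FHT-1015 limma-voom and scaling to the control genes called a rise then.

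SLIT2, a ligand of ROBO receptors and the member of the SLIT and ROBO list with the largest called change, moved with ROBO1 under FHT-1015 and against it under IDE196. It went from 6.21, 6.33 and 7.92 to 68.3, 59.4 and 64.5 CPM in 92-1, from 5.61, 18.6 and 14.8 to 93.2, 108 and 120.2 CPM in MEL202 and from 33.2, 29.6 and 19.9 to 141, 88.2 and 89.5 CPM in MP41 at 24 h, and from 16.5, 15.2 and 15.7 to 6.80, 10.3 and 9.40 CPM with IDE196. The log2 changes were 3.21 ± 0.13, 3.07 ± 0.45 and 2.02 ± 0.24 with FHT-1015 (adjusted p = 2.70e-11, 0.000393 and 3.12e-05) and -0.89 ± 0.15 with IDE196 (adjusted p = 5.00e-05). Of the 7 genes of the list, FHT-1015 raised 4 and lowered 1 of the 5 tested in 92-1, raised 3 of 5 in MEL202 and 2 of 4 in MP41, and IDE196 raised 2 and lowered 1 of 5, at 24 h. The share called was 60.6% of all genes in 92-1, 18.8% in MEL202 and 36.1% in MP41 with FHT-1015 and 58.1% with IDE196, so the IDE196 count is near that of all genes.

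LTA4H rose at 24 h with either drug in 92-1, from 62.0, 59.3 and 63.5 to 92.8, 92.9 and 96.4 CPM with FHT-1015 and from 56.3, 56.2 and 61.8 to 112, 106 and 118 CPM with IDE196. These were changes of 0.59 ± 0.088 (adjusted p = 3.02e-05) and 0.90 ± 0.085 (adjusted p = 8.68e-08), and the groups did not overlap. The FHT-1015 change minus the IDE196 change was -0.31 ± 0.12 (adjusted p = 0.0454), a call lost in 23 of the 24 fits that left out 1 library, for example without DMSO at 24 h replicate 3 (-0.26, adjusted p = 0.133). In MP41 it went from 54.3, 36.5 and 59.2 to 71.5, 72.0 and 79.5 CPM (0.62 ± 0.18, adjusted p = 0.0186), and was not called without FHT-1015 at 24 h replicate 3 (0.58, adjusted p = 0.0624). MEL202 held 65.6, 54.5 and 61.8 and 63.9, 70.8 and 72.6 CPM, which overlapped (95% interval -0.40 to 0.82). Of the 8 genes of the leukotriene pathway 3 were tested in each experiment, and the receptor gene LTB4R rose in 92-1 with FHT-1015 at 24 h (0.53, adjusted p = 0.0489) and fell with IDE196 (-0.46, adjusted p = 0.0456).

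ECM1 fell at 24 h in all 3 lines and with both drugs in 92-1, and no change was called at 4 h. FHT-1015 took it from 136, 96.8 and 115 to 59.2, 47.6 and 42.5 CPM in MEL202 and from 125, 193 and 128 to 77.0, 74.2 and 75.9 CPM in MP41, with no overlap in either line. The changes were -1.20 ± 0.21 (adjusted p = 0.0016) and -0.90 ± 0.15 (adjusted p = 0.000564). At 4 h the changes were -0.0031 and 0.0022, with 95% intervals of -0.46 to 0.45 and -0.33 to 0.33. In 92-1, where the gene is nearly silent, 35, 20 and 24 reads in DMSO at 24 h stood against 10, 3 and 16 with FHT-1015 (-1.17 ± 0.45, adjusted p = 0.0344). The IDE196 set held 100, 77 and 43 reads in DMSO and 47, 41 and 10 with IDE196 at 24 h (-1.10 ± 0.41, adjusted p = 0.0282), and these groups overlapped in CPM. Neither 92-1 call held in every fit that left out 1 library. In those fits the FHT-1015 change ran from -1.59 to -0.828 and the IDE196 change from -1.4 to -0.734. The FHT-1015 call was lost without any of DMSO replicates 1 and 3 and FHT-1015 replicates 1 and 2 at 24 h (adjusted p 0.0631 to 0.134), and the IDE196 call without DMSO replicate 4 or 5 or IDE196 replicate 3 at 24 h (0.0732 to 0.134).

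**Figure D3:**
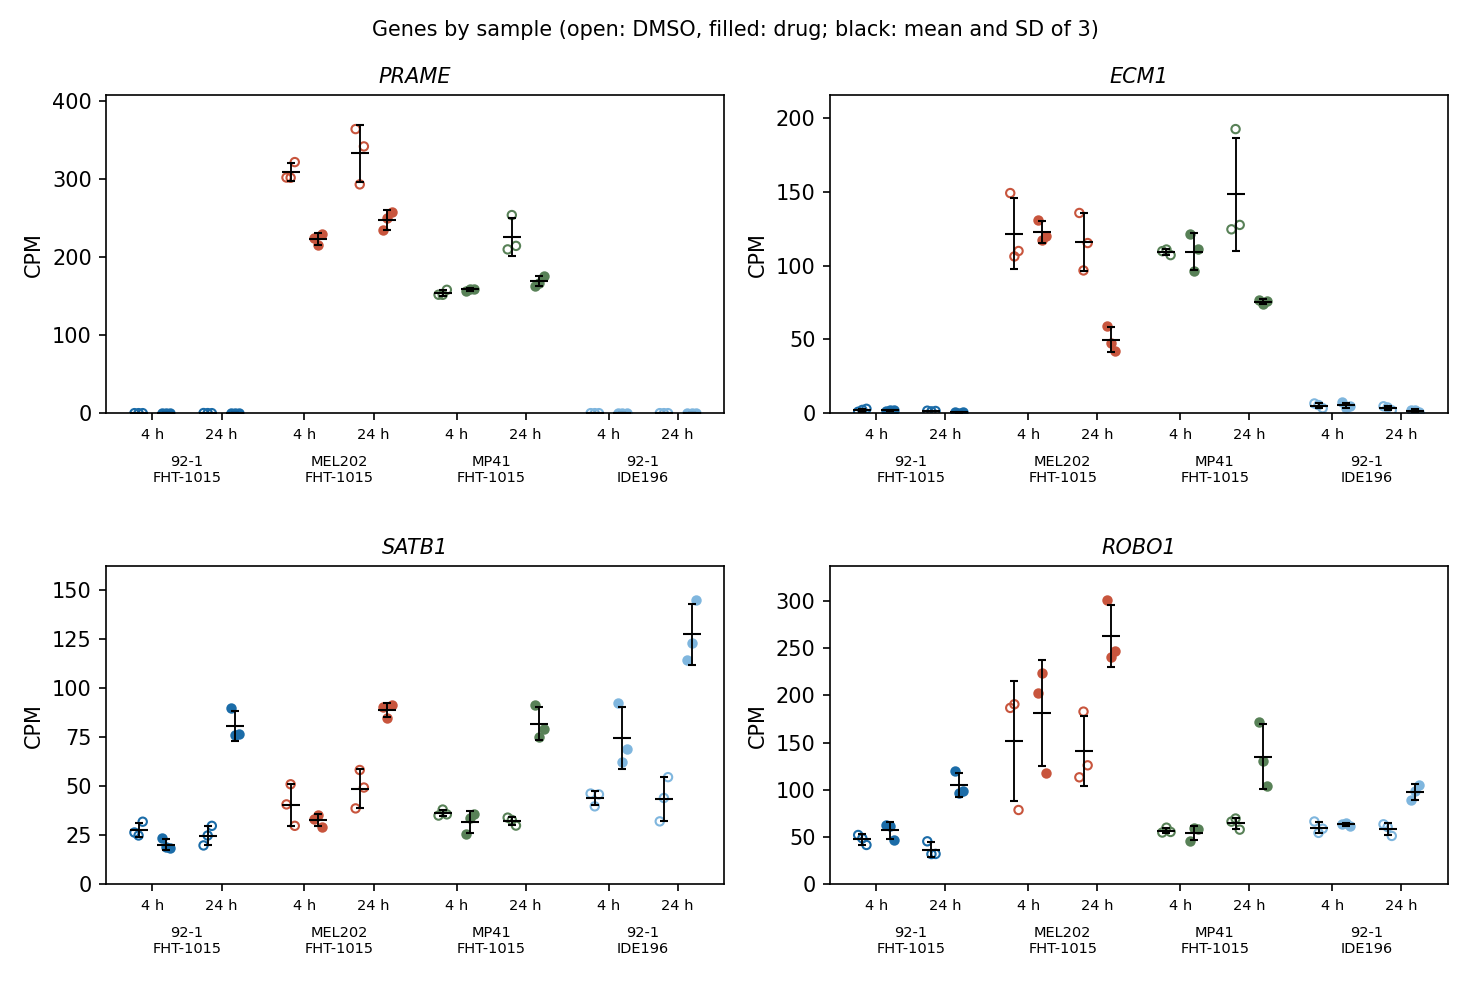
CPM of PRAME, ECM1, SATB1 and ROBO1 in each library (open points DMSO, filled points drug) with the mean and SD of 3 (black), by line, drug and time, each panel from 0. At 24 h the treated SATB1 points lie above all DMSO points of their line, and the ECM1 points of MEL202 and MP41 lie below theirs.

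MTUS1 differed in direction between the lines. With FHT-1015 at 24 h it fell in 92-1, from 131, 124 and 130.1 to 79.4, 91.2 and 104 CPM, and rose in MEL202, from 46.4, 63.3 and 56.9 to 174, 159 and 161 CPM, and in MP41, from 45.9, 28.3 and 48.2 to 97.5, 86.1 and 79.9 CPM. No groups overlapped. The changes were -0.51 ± 0.087 (adjusted p = 0.000111), 1.59 ± 0.22 (adjusted p = 0.000298) and 1.15 ± 0.20 (adjusted p = 0.000697). A joint test found the effect to differ among the lines at 24 h (spread between the highest and lowest line 2.06 log2, adjusted p = 1.42e-06), a call kept in all 36 fits without 1 library. After treatment MEL202 stood at 164 ± 8.08 CPM, MP41 at 87.8 ± 8.91 and 92-1 at 91.5 ± 12.2 (SD, n = 3), so the order of MEL202 and 92-1 was the reverse of that in DMSO.

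In 92-1 the fall of MTUS1 followed an early rise. At 4 h it went from 112, 114 and 114 to 173, 171 and 163 CPM with FHT-1015 (0.55 ± 0.086, adjusted p = 0.000174), and the change from 4 h to 24 h was -1.06 ± 0.12 (adjusted p = 5.42e-06). IDE196 raised it at both times, from 107, 84.4 and 92.7 to 269, 237 and 226 CPM at 4 h (1.36 ± 0.10) and from 102, 107 and 95.5 to 217, 251 and 251 CPM at 24 h (1.20 ± 0.10), with adjusted p = 7.60e-08 and 2.07e-08. The drugs therefore moved it in opposite directions at 24 h in the same line, and differed by -1.71 ± 0.13 (adjusted p = 7.06e-11).

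RAB31 fell in 92-1 and rose in MP41. FHT-1015 took it from 116, 102 and 106 to 63.6, 53.2 and 46.0 CPM at 4 h and from 102, 74.6 and 85.5 to 46.0, 44.0 and 46.8 CPM at 24 h in 92-1, changes of -1.02 ± 0.12 and -0.96 ± 0.12 (adjusted p = 8.28e-06 and 4.10e-06). In MP41 at 24 h it rose from 116, 80.9 and 128 to 177, 161 and 167 CPM (0.68 ± 0.18, adjusted p = 0.00999). MEL202 held 109.7, 239.5 and 208 CPM in DMSO and 252, 275 and 282 CPM with FHT-1015 at 24 h, without overlap but also without a call (0.56 ± 0.29, adjusted p = 0.212), though limma-voom and the fit of all 48 libraries called it (adjusted p = 0.0102 and 0.0393). The effects differed among the lines at 24 h (spread 1.55, adjusted p = 0.000862), and this call too was kept in all 36 fits without 1 library. IDE196 lowered RAB31 from 127, 161 and 131 to 74.0, 90.5 and 89.4 CPM at 24 h (-0.77 ± 0.11, adjusted p = 8.80e-06). Its smaller fall at 4 h (-0.33 ± 0.11, adjusted p = 0.0439) was not called without any of 6 libraries (IDE196 at 4 h replicates 1 and 3 and at 24 h replicate 2, DMSO at 4 h replicates 4, 5 and 6), with adjusted p of 0.0551 to 0.177.

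RAB31 belongs to the RAB5 subfamily of GTPases. Of its 6 genes FHT-1015 at 24 h raised 1 and lowered 4 in 92-1, called 0 in MEL202 (RAB5C had -0.86, adjusted p = 0.0606) and raised 2 and lowered 2 in MP41. IDE196 raised 2 and lowered 2. Beside these counts, 60.6% of all genes in 92-1, 18.8% in MEL202 and 36.1% in MP41 with FHT-1015 and 58.1% with IDE196 were called, and 4 of 6 with IDE196 is near that share. RAB5C, a GTPase of early endosomes, had the largest called change, -1.29 ± 0.088 in 92-1 at 24 h (adjusted p = 6.33e-09).

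LMCD1 fell with IDE196 in 92-1, and no change with FHT-1015 passed in edgeR's test. IDE196 lowered it from 20.4, 20.5 and 24.7 to 13.8, 15.3 and 13.3 CPM at 4 h and from 19.9, 22.7 and 25.1 to 8.58, 11.1 and 8.98 CPM at 24 h. These changes were -0.63 ± 0.13 and -1.29 ± 0.13 (adjusted p = 0.00236 and 2.87e-07), with no overlap. With FHT-1015 at 4 h it had 26.4, 25.4 and 25.2 CPM against 23.1, 19.8 and 19.9 in DMSO, without overlap (0.27 ± 0.12, adjusted p = 0.102), a rise that was called with scaling to the control genes (0.575, adjusted p = 0.00137) and by limma-voom (0.283, adjusted p = 0.0187). At 24 h it had 24.5, 19.6 and 17.6 CPM against 22.8, 19.3 and 21.9 (95% interval -0.34 to 0.18). The difference between the drugs was 0.90 ± 0.18 at 4 h and 1.21 ± 0.18 at 24 h (adjusted p = 0.0004 and 7.24e-06). In MEL202 and MP41 the 24 h changes of 0.44 ± 0.19 and 0.41 ± 0.16 did not pass (adjusted p = 0.132 and 0.0638), and these calls depended on the fit. The MEL202 rise was called by limma-voom, in the 6 libraries alone and with all 48 in one fit (adjusted p = 0.00823, 0.0364 and 0.0285). The MP41 rise was called with scaling to the control genes and from the summed stranded columns (adjusted p = 0.00838 and 0.0458), and without DMSO at 24 h replicate 2 or FHT-1015 at 24 h replicate 3.

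HTR2B first fell and then rose in 92-1 with FHT-1015. It went from 20.7, 20.5 and 22.1 to 16.2, 13.5 and 12.3 CPM at 4 h (-0.61 ± 0.13, adjusted p = 0.00216) and from 20.8, 15.5 and 18.4 to 29.6, 24.8 and 23.5 CPM at 24 h (0.49 ± 0.13, adjusted p = 0.00401). The time difference was 1.10 ± 0.18 (adjusted p = 0.000164). With all 48 libraries in one fit neither change was called (adjusted p = 0.298 and 0.231). With IDE196 it had 11.9, 12.2 and 11.4 CPM in DMSO and 14.4, 15.9 and 15.2 CPM after 24 h (0.31 ± 0.13, adjusted p = 0.0425), a call that 9 single libraries (all of the 24 h samples and IDE196 at 4 h) each ended when left out, with adjusted p of 0.0505 to 0.132. PSMD1, which overlaps it on the other strand, changed by -0.72 ± 0.093 with FHT-1015 and -0.94 ± 0.10 with IDE196 at 24 h, and its part in the HTR2B counts was not tested. No HTR2B change was called in MEL202 or MP41, where single libraries held 7.76 CPM (MEL202 with FHT-1015 at 4 h replicate 2) and 2.55 CPM (MP41 DMSO at 24 h replicate 2) against at least 25.8 and 11.7 CPM in the others of their groups. HTR2B was the only one of 12 serotonin receptor genes tested in 92-1 and MP41, and HTR6 was the other in MEL202.

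EIF1B rose in MP41 at 24 h, from 20.2, 17.6 and 27.4 to 26.6, 39.5 and 44.1 CPM, with 1 treated library inside the DMSO range (0.80 ± 0.21, adjusted p = 0.0089). Its rise in 92-1 was 0.27 ± 0.099 (adjusted p = 0.0277), not called without DMSO replicate 2 or 3 or FHT-1015 replicate 1 or 2 at 24 h (adjusted p 0.052 to 0.119). In MEL202 and with IDE196 no change was called (95% intervals -0.64 to 0.83 and -0.13 to 0.39). EIF1AX, another initiation factor of this group and its largest called change, fell with IDE196 at 24 h (-1.25, adjusted p = 3.44e-09). The close relative EIF1 had 0.039 in 92-1, -0.16 in MEL202 and 0.35 in MP41 with FHT-1015 at 24 h and 0.00 with IDE196, none called. Reads that align to several places stand in a row of their own in the deposited files, apart from the gene counts.

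PRAME fell in MP41 at 24 h, from 209.9, 254 and 214 to 164, 167 and 176 CPM (-0.36 ± 0.11, adjusted p = 0.023). The call was lost without FHT-1015 replicate 2 or 3 at 24 h (adjusted p = 0.0691 and 0.053) and with scaling to the control genes (-0.15, adjusted p = 0.365). In MEL202 the treated libraries lay below the DMSO libraries at both times, 225, 215 and 229.8 against 302, 302 and 322 CPM at 4 h and 234 to 258 against 364, 293 and 342 CPM at 24 h. Neither change passed (-0.48 ± 0.17 and -0.41 ± 0.17, adjusted p = 0.35 and 0.113), but DESeq2 called the first (adjusted p = 0.0423), and DESeq2, limma-voom and the fit of the 6 libraries alone called the second (adjusted p = 0.0301, 0.000636 and 0.026). Neither drug brought PRAME in 92-1 above 4 reads in any library. Of 12 genes of retinoic acid receptors and response, FHT-1015 at 24 h raised 1 and lowered 2 of 7 tested in 92-1, raised 1 of 9 in MEL202 and raised 3 and lowered 3 of 8 in MP41. The counts in 92-1 and MEL202 are below the shares of all genes called there (60.6% and 18.8%), and 36.1% were called in MP41. RARA, a retinoic acid receptor and the gene of that list with the largest called change, changed at 4 h by -1.31 ± 0.15 in 92-1 and -1.52 ± 0.23 in MEL202 (adjusted p = 8.26e-06 and 0.00604).

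**Figure D4:**
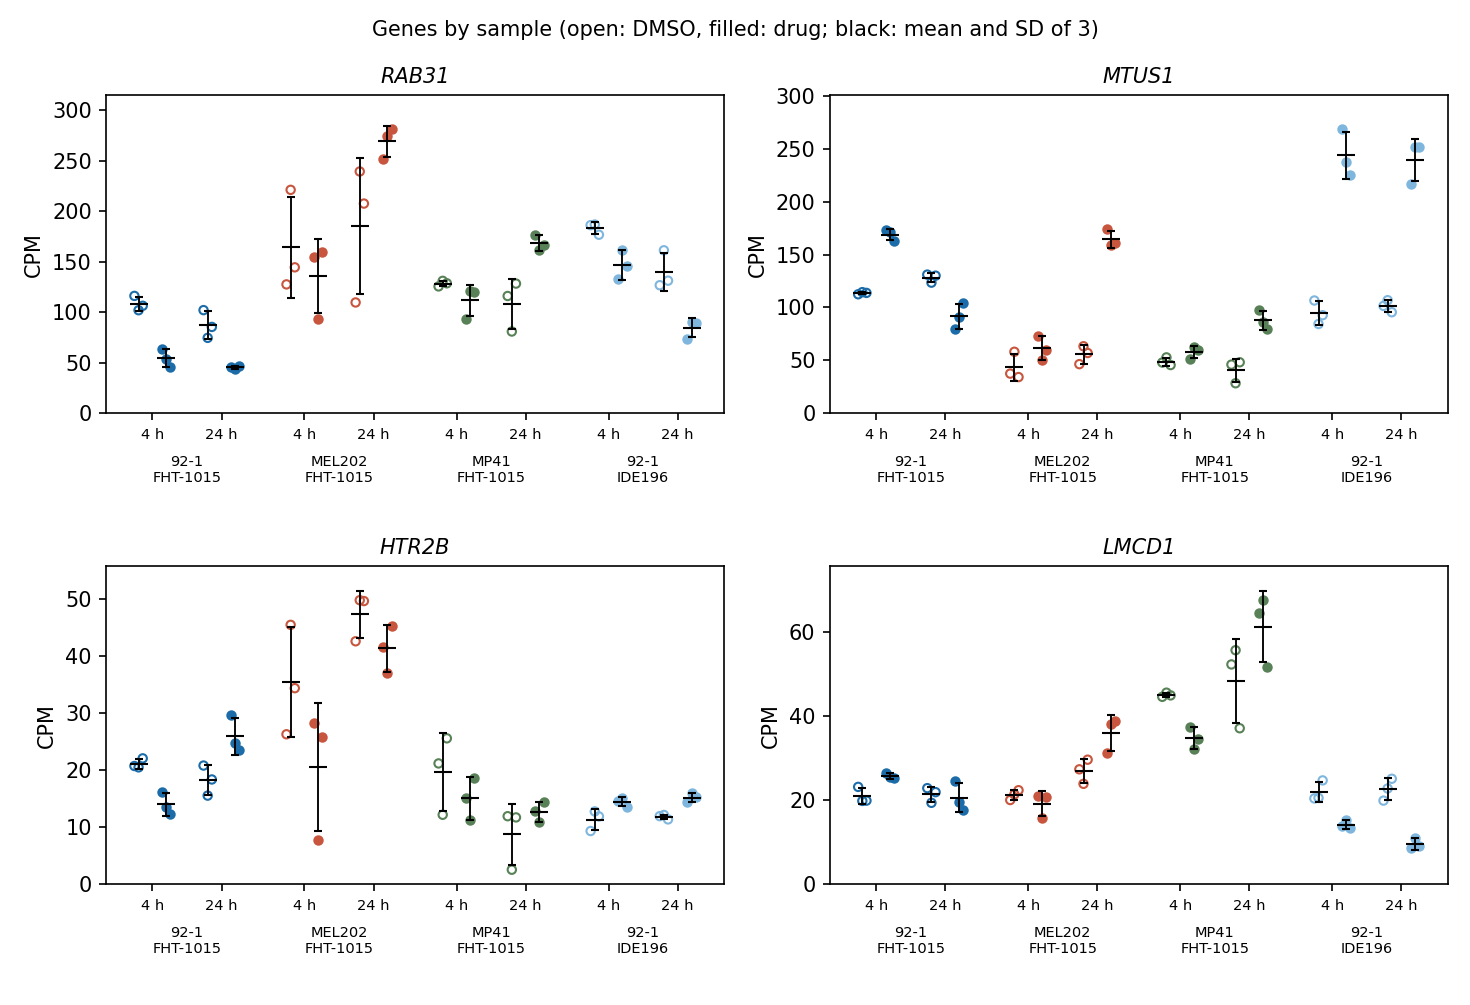
CPM of RAB31, MTUS1, HTR2B and LMCD1, whose response depended on line or drug, in each library (open points DMSO, filled points drug) with the mean and SD of 3 (black), each panel from 0. MTUS1 falls in 92-1 with FHT-1015 at 24 h and rises in MEL202, MP41 and with IDE196, and LMCD1 falls with IDE196.

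At 4 h edgeR called none of the 10 genes in MEL202 or MP41. MTUS1 went from 37.4, 58.1 and 34.1 to 73.3, 50.5 and 60.1 CPM in MEL202 and from 47.9, 52.8 and 45.5 to 51.3, 62.5 and 59.7 CPM in MP41 (0.49 ± 0.22 and 0.24 ± 0.20). SATB1 had 33.2, 35.5 and 29.4 CPM with FHT-1015 against 40.7, 51.0 and 29.8 in MEL202, and 31.8 ± 5.59 against 36.3 ± 1.62 (SD, n = 3) in MP41 (95% intervals -0.78 to 0.15 and -0.52 to 0.13). The treated and DMSO groups overlapped for SATB1 in both lines, and the 95% interval of MTUS1 in MEL202 was 0.022 to 0.97. LMCD1 in MP41 had 37.3, 32.1 and 34.6 CPM against 44.5, 45.5 and 44.8 in DMSO, without overlap (-0.38 ± 0.16, adjusted p = 0.779), and was called by limma-voom (-0.414, adjusted p = 0.0246). The early change of RAB31 was -0.29 ± 0.29 in MEL202 and -0.20 ± 0.18 in MP41, against -1.02 in 92-1.

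The response at 24 h was tested against that at 4 h within each experiment. In 92-1 with FHT-1015, 5 of 9 genes differed (background 45.5%), led by SATB1 (2.16 ± 0.21, adjusted p = 1.20e-06) and ROBO1 (1.26 ± 0.20, adjusted p = 0.000134). MP41 had 6 of 10 (background 18.6%), among them SATB1 (1.60 ± 0.21), ROBO1 (1.19 ± 0.25) and ECM1 (-0.90 ± 0.22), but 3 on leaving out any one of DMSO at 4 h replicates 1, 2 and 3 and FHT-1015 at 4 h replicates 1 and 3. MEL202 had 2 of 10 (background 6.89%), SATB1 and ECM1. It had 0 on leaving out any one of DMSO at 4 h replicate 2 and at 24 h replicates 1 and 3, FHT-1015 at 4 h replicate 1 and at 24 h replicates 2 and 3, and 1 without FHT-1015 at 4 h replicate 3 or at 24 h replicate 1. IDE196 had 5 of 9 (background 30.7%), and 3 without IDE196 at 4 h replicate 2 or 3. With all 48 libraries in one fit these counts were 3 in 92-1, 5 in MP41, 4 in MEL202 and 1 with IDE196. The test of the FHT-1015 effect among lines called 0 of 10 genes at 4 h (background 1.38%), with PRAME, RAB31 and LMCD1 at an unadjusted p under 0.05 and RAB31 and LMCD1 called by limma-voom. PRAME held at most 3 reads per library in these 92-1 groups, so its effect in 92-1, and with it this test, cannot be read. At 24 h the test called 2, RAB31 and MTUS1 (background 12%), and 7 by limma-voom. The backgrounds are edgeR's, and none was counted for limma-voom or the fit of all 48 libraries. Each drug was compared with its own DMSO set before the drugs were compared, and their effects differed in 5 of 9 genes at 4 h (background 24.6%) and in 4 at 24 h (background 33%), or in 3 and 2 with all 48 libraries in one fit.

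The other class genes and the control genes moved too. ID2 rose at 4 h in 92-1 with FHT-1015, from 89.6, 107 and 104 to 187, 225 and 233 CPM (1.08 ± 0.11, adjusted p = 1.86e-06), in MP41 (1.08 ± 0.16, adjusted p = 0.0102) and with IDE196 (0.97 ± 0.15, adjusted p = 0.000248), and had 1.16 ± 0.30 in MEL202 without passing (adjusted p = 0.12). The MEL202 rise was called in 5 of 10 other settings (DESeq2, limma-voom, no low-count filter, scaling to the control genes and all 48 libraries in one fit, adjusted p 0.000147 to 0.0461) and without DMSO at 4 h replicate 3. The MP41 call at 4 h was lost without DMSO at 4 h replicate 1, 2 or 3 or FHT-1015 at 4 h replicate 1 (adjusted p 0.0519 to 0.0958). FXR1 rose at 24 h by 0.67 ± 0.069 in 92-1, 0.90 ± 0.24 in MP41 and 0.69 ± 0.085 with IDE196 (adjusted p = 5.91e-07, 0.0118 and 2.34e-06), and had 0.42 ± 0.28 in MEL202 without passing (adjusted p = 0.357). With the 6 libraries compared fitted alone, FXR1 was not called in MP41 (0.848, adjusted p = 0.0704) and was called in MEL202 (adjusted p = 0.0124), as it was there by limma-voom (adjusted p = 0.00283). CDH1 stayed at or under 2.32 CPM in every library. With these genes included, FHT-1015 at 24 h raised 6 and lowered 1 of the 8 genes lower in class 2 in 92-1, raised 7 and lowered 0 in MP41, and raised 2 and lowered 0 in MEL202, where 6 were not called. IDE196 raised 6 and lowered 1. Among all genes 29.2% were called higher and 31.4% lower in 92-1, and 17.4% and 18.7% in MP41. The shares were 8.69% and 10.1% in MEL202 and 28.7% and 29.4% with IDE196.

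SAP130, a subunit of the SIN3 corepressor complex that serves as a control gene, was not constant. With FHT-1015 in 92-1 it fell from 33.1, 34.2 and 31.7 to 17.2, 19.2 and 14.3 CPM at 4 h (-0.98 ± 0.11, adjusted p = 6.11e-06) and from 35.0, 30.1 and 29.3 to 20.3, 21.8 and 22.0 CPM at 24 h (-0.58 ± 0.11, adjusted p = 0.000276), with no overlap. In MP41 SAP130 fell at 24 h (-0.70 ± 0.16, adjusted p = 0.00423). In MEL202 it had 26.6, 33.1 and 23.4 CPM against 58.7, 58.0 and 32.7 in DMSO at 4 h, which overlapped, and the changes at 4 and 24 h did not pass (-0.85 ± 0.24 and -0.32 ± 0.23, adjusted p = 0.162 and 0.403). The one at 4 h was called by DESeq2, with all 48 libraries in one fit and without DMSO at 4 h replicate 3 (adjusted p = 0.0327, 0.000582 and 0.0402), and the one at 24 h by limma-voom (adjusted p = 0.0408). In MP41 the change at 4 h (-0.38 ± 0.16, adjusted p = 0.752) was called by limma-voom and in the 6 libraries alone (adjusted p = 0.00866 and 0.0376). With IDE196 no change was called (95% interval at 24 h -0.36 to 0.02). MRPS21 rose in 92-1 at 4 h (0.30 ± 0.090, adjusted p = 0.0199), a call lost without DMSO or FHT-1015 replicate 3 at 4 h (adjusted p = 0.117 and 0.0818), and RBM23 fell with IDE196 at 24 h (-0.19 ± 0.075, adjusted p = 0.0368), a call that each of 6 single libraries ended when left out. Scaling the libraries to these 3 genes instead of TMM raised the values in 92-1 at 4 h by 0.302 log2 (median shift of 14 genes), and HTR2B and SATB1 were then not called there (-0.31 and -0.18, adjusted p = 0.061 and 0.421). LTA4H, ROBO1, LMCD1 and EIF1B were then called higher there (0.428, 0.552, 0.575 and 0.51).

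**Figure D5:**
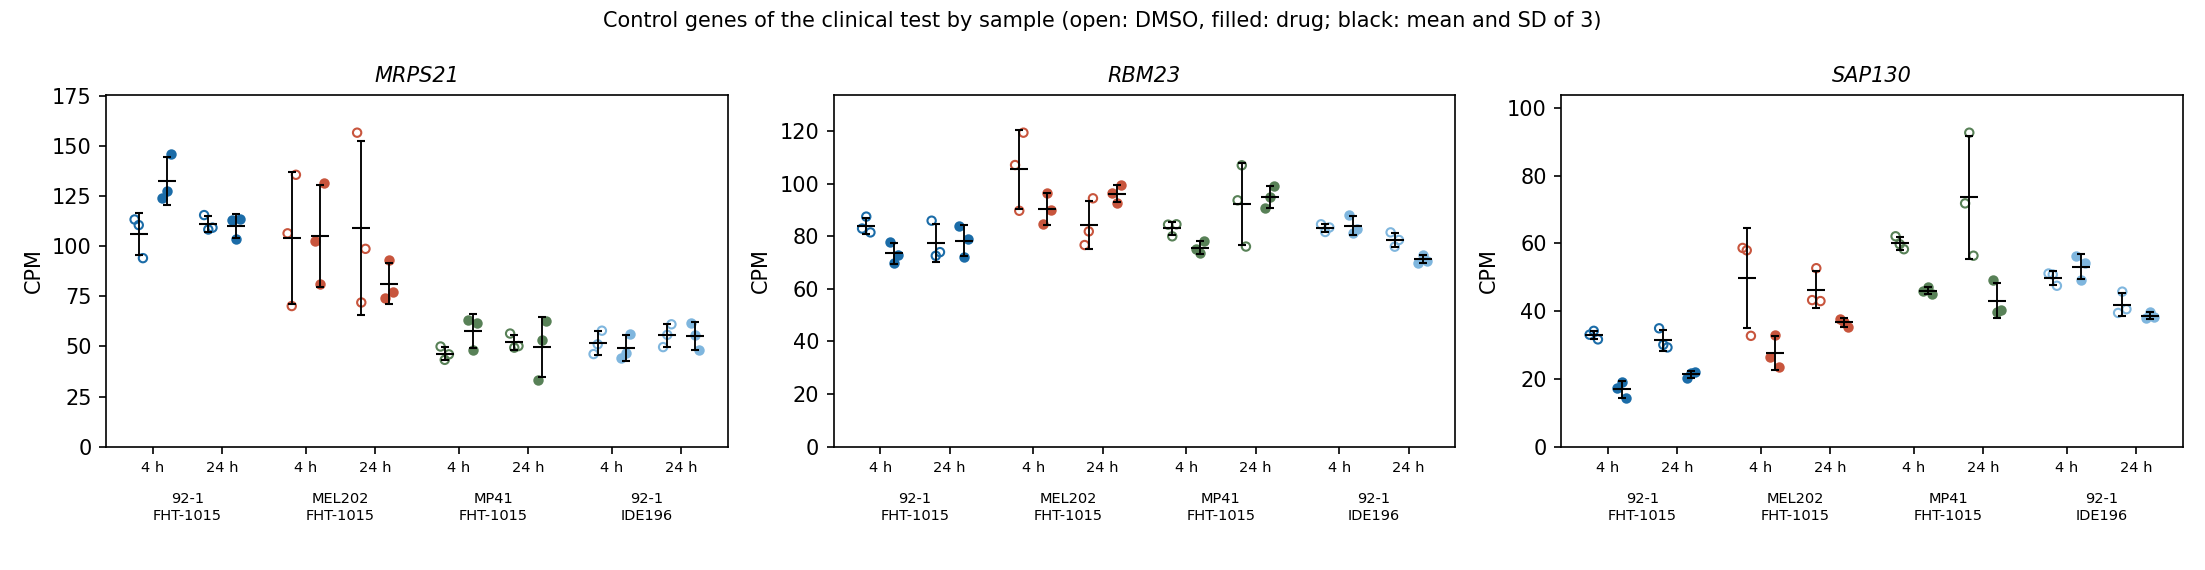
CPM of the control genes MRPS21, RBM23 and SAP130 in each library (open points DMSO, filled points drug) with the mean and SD of 3 (black), by line, drug and time, each panel from 0. SAP130 lies below DMSO with FHT-1015 at 4 and 24 h in 92-1 and at 24 h in MP41, and the treated points also lie below DMSO, without a call by edgeR, at 4 h in MP41 and at 24 h in MEL202.

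MRPS21 also differed between vehicle-treated cells, with 6-library means of 108 ± 7.58 CPM in the FHT-1015 set of 92-1, 53.6 ± 5.57 in its IDE196 set, 107 ± 34.5 in MEL202 and 49.2 ± 4.44 in MP41 (SD). The sets of 92-1 differed by -0.98 ± 0.16 (adjusted p = 7.76e-05).

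Markers of cell types changed beside these genes, the melanocyte lineage first. At 24 h FHT-1015 lowered 9 of 9 markers tested in 92-1, 9 of 10 in MEL202 and 9 of 9 in MP41, and their summed level was 5150 CPM against 20910 in DMSO in 92-1, 2989 against 9030 in MEL202 and 5730 against 12390 in MP41. IDE196 raised 3 and lowered 1 of 9, with a summed level of 20120 CPM against 18260. The shares of all genes called lower were 31.4%, 10.1%, 18.7% and 29.4% in the same order. The 3 retinal pigment epithelium markers summed to 1.57 CPM with FHT-1015 against 30.4 in DMSO at 24 h in 92-1, 0.242 against 17.5 in MEL202 and 0.959 against 16.8 in MP41, and to 38.2 CPM with IDE196 against 13.7. The 5 fibroblast markers summed to 11.8 against 3.70 CPM in 92-1, 36.5 against 7.15 in MEL202 and 34.5 against 33.3 in MP41 with FHT-1015, and to 15.5 against 8.58 with IDE196. The part of these markers in the changes of the class genes was not tested.

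Over the 16 group means, genes with the most similar levels were named as a description, among 11683 genes with at least 5 CPM in some group. PRAME was matched by PLTP, a lipid transfer protein (Pearson r = 0.999, Spearman rho = 0.889), ECM1 by DNAJA4, a chaperone (0.985 and 0.879), HTR2B by PFN2, a profilin (0.93 and 0.832), and RAB31 by ATF6, a sensor of endoplasmic reticulum stress (0.882 and 0.794). The groups share lines and controls, and for PRAME and ECM1 the match rests on levels near 0 in 92-1 and high in the other lines. Chromosome 3, often lost in class 2 tumours, carries ROBO1, SATB1, LMCD1 and EIF1B. Its 920 genes tested had a median DMSO difference from 92-1 of 0.234 log2 in MEL202 and 0.076 in MP41, beside 0.0123 and -0.0344 over all genes. Against 92-1, ROBO1 had 1.83 and 0.57, SATB1 0.78 and 0.41, LMCD1 0.21 (not called) and 1.17, and EIF1B -1.15 and -1.06 in MEL202 and MP41.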

How the data were processed

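RNA was sequenced from 48 samples, and the authors deposited raw read counts per gene, 1 file per sample, with an unstranded column and 2 stranded columns, per the file headers. The genome build hg38 and the package limma appear in the submitters' processing notes, and the aligner and annotation are not given in the sources used here. The unstranded counts were used, since reads split evenly between strands (49.73 to 50.11% on the first). Of 58870 gene identifiers, 58552 were found in GENCODE 29, which gave coordinates and exon lengths, and the 92 spike-in rows were at 0. Depth was 11394088 to 32317711 reads in genes per library, which limits precision most for genes with few reads, such as ECM1 and PRAME in 92-1.

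Genes were filtered with filterByExpr, scaled by TMM and tested with the quasi-likelihood test of edgeR 4.0.16 (R 4.3.3), in 1 fit of 12 libraries per line and drug. Effects were compared among lines, between drugs and among DMSO sets in joint fits of 36, 24 and 24 libraries. Standard errors are the absolute log2 change divided by the square root of F, and p-values were adjusted by Benjamini-Hochberg over all genes tested. The test among lines is a joint one over both line differences. The test was tried on simulated counts for 92-1 and MEL202 with FHT-1015 at 4 h only. Alternatives were other scalings, no filter, DESeq2 1.42.0, limma-voom (limma 3.58.1), other sample sets, the replicate number as a block and each library left out. The floor for a gene at 0 was 3 reads per library and covers counting error only. The genes and lists were chosen with earlier results of these data known. Beside them, the text names the gene of each list with the largest called change in a drug comparison, and the genes overlapping HTR2B, SATB1 and LMCD1 were added after their values were seen. Likeness between genes used log2(CPM + 1) over the 16 group means. Same-numbered replicates were checked for pairing and were not treated as pairs.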

Additional observations from a re-analysis of the deposited data

Results flagged for a closer look

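Of the responses compared between times, lines and drugs, 29 differed by a test of the difference itself (edgeR adjusted p under 0.05). With time, FHT-1015 gave 5 of 9 genes in 92-1 (45.5% of all genes), 2 of 10 in MEL202 (6.89%) and 6 of 10 in MP41 (18.6%). IDE196 gave 5 of 9 (30.7%). Among lines they were 0 of 10 at 4 h (1.38%) and 2 of 10 at 24 h (12%). Between drugs they were 5 of 9 at 4 h (24.6%) and 4 of 9 at 24 h (33%). The counts for time in 92-1 with FHT-1015 and between drugs at 24 h are near those shares. All groups hold 3 samples, too few for a test of single outlying samples. Values are log2 differences between effects.

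SATB1, the chromatin organiser, had a higher log2 change at 24 h than at 4 h in every experiment. The difference was 2.16 in 92-1, 1.20 in MEL202 and 1.60 in MP41 with FHT-1015 and 0.742 with IDE196. In 92-1 with FHT-1015 its direction reversed, from a fall at 4 h to a rise at 24 h. Its 4 h changes in MEL202 and MP41 were also negative, though not called. ROBO1, the SLIT receptor, had a higher change at 24 h by 1.26 in 92-1 and 1.19 in MP41 with FHT-1015 and by 0.61 with IDE196. LTA4H, the leukotriene enzyme, gained 0.463 with FHT-1015 and 0.688 with IDE196 in 92-1. ECM1 lost -1.20 in MEL202 and -0.903 in MP41. HTR2B gained 1.10 in 92-1 with FHT-1015.

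MTUS1 went opposite ways with time, by -1.06 in 92-1 and 0.908 in MP41. RAB31 gained 0.886 in MP41 and lost -0.446 with IDE196. LMCD1 gained 0.785 in MP41 and lost -0.656 with IDE196. The MTUS1 difference in MP41 was not called without any 1 of 9 of its 12 libraries (adjusted p 0.0552 to 0.102), nor with the replicate number as a block (0.917, adjusted p = 0.0561). That of LMCD1 was lost without any of 8 (0.0586 to 0.103) and that of RAB31 without any of 7 (0.0531 to 0.0774). In MEL202 the ECM1 difference was lost without any of 6 libraries (0.0548 to 0.0957) and the SATB1 difference without any of 8 (0.0591 to 0.0913). With IDE196 the RAB31 difference was lost without any of 5 libraries (0.0507 to 0.102) and the SATB1 difference without any of 4 (0.0545 to 0.0658).

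Among lines at 24 h, the FHT-1015 effects spanned 2.06 for MTUS1 and 1.55 for RAB31. Between the drugs in 92-1, the FHT-1015 effect minus the IDE196 effect at 4 h was -0.955 for HTR2B, -0.691 for RAB31, -0.815 for MTUS1, -1.24 for SATB1 and 0.901 for LMCD1. At 24 h it was -1.71 for MTUS1, 0.812 for ROBO1, 1.21 for LMCD1 and -0.312 for LTA4H.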

How the results depend on the processing

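Of 35 called changes of the 10 genes against DMSO, 26 were called in every fit that left out 1 library, 24 under every other setting and 22 in all. Over all gene values and settings, 1986 of 2140 kept their call and direction, 65 lost the call, 85 gained one and 4 reversed (127 values that passed in neither fit changed sign and are counted as kept). The reversals were RBM23 with FHT-1015 in 92-1 at 24 h when scaled by the control genes (0.20), and, with the IDE196 set standing for 92-1, the differences of MP41 from 92-1 for HTR2B (0.18), RAB31 (-0.44) and SATB1 (-0.36). With all 48 samples in one fit, called genes numbered 2 for FHT-1015 in 92-1 at 4 h, 6 for MEL202 at 24 h, 3, 4 and 1 for the change with time in 92-1, MEL202 and IDE196, and 3 and 2 for the drugs at 4 and 24 h. With limma-voom they numbered 7 for MEL202 at 24 h, 1 for MP41 at 4 h, and 2 and 7 among lines at 4 and 24 h. DESeq2 gave 1 and 5 for MEL202 at 4 and 24 h. The compared samples alone gave 6 for MEL202 and 4 for MP41 at 24 h, and control gene scaling gave 1 for time in MEL202. The cause was not tested. With 1 library left out, the time counts ranged from 0 to 3 in MEL202, 3 to 9 in MP41 and 3 to 5 with IDE196. MP41 had 3 without any DMSO 4 h replicate or FHT-1015 4 h replicate 1 or 3, and IDE196 had 3 without IDE196 4 h replicate 2 or 3. Of 18 same-numbered pairs, 10 correlated over 0.1 (-0.513 to 0.713), and the numbers were not taken as pairs, although in MP41 all 3 pairs at 4 h did (0.128 to 0.301) and 1 of 3 at 24 h did not (0.06). The replicate block gave 4 and 8 calls in 92-1, 0 and 4 in MEL202 and 0 and 9 in MP41 at 4 and 24 h, 5, 2 and 5 for time, and 0 and 2 among lines. It called ROBO1 in MEL202 (0.945, adjusted p = 0.0294) and LMCD1 in MP41 (0.41, adjusted p = 0.049) at 24 h. The DMSO and IDE196 samples share no replicate numbers.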
